A study of Homo sapiens with 2 samples.

Results

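The NRF2 pathway was examined through 9 genes: NFE2L2, which encodes the transcription factor NRF2, its inhibitor KEAP1, and the target genes NQO1, HMOX1, GCLC, GCLM, TXNRD1, SRXN1 and OSGIN1. They were taken by gene symbol from 57820 listed genes, and all 9 were found. They were selected on the expected counts and TPM compared here, with earlier results of these libraries known, so their values are a description and no test was made. The data are poly(A)-selected RNA-seq of unmodified, wild-type cultures of SKHEP1 and HepG2, both human lines from liver cancer, with 1 library per line and no treatment named in the labels. Both lines were grown in the same serum-supplemented medium. HepG2 is labelled hepatocellular carcinoma. SKHEP1 is labelled endothelial cells.

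NRF2 is a transcription factor of the cap'n'collar family that turns on genes for detoxification and for the glutathione and thioredoxin systems. In unstressed cells KEAP1 binds it and presents it to a CUL3 ubiquitin ligase, which leads to its degradation. Electrophiles and oxidants modify cysteines of KEAP1, NRF2 then accumulates, pairs with a small MAF protein and binds antioxidant response elements near its target genes. In liver the pathway is known for protection against reactive drug metabolites, and it is often active in liver cancer. NQO1, a quinone reductase, is a commonly used readout of it and has also been described as a protein that binds p53 and protects it from degradation. RNA levels do not measure NRF2 protein or its activity.

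The SKHEP1 library held 19940557 expected counts, RSEM's estimates of reads per gene, and the HepG2 library 22477757. Ratios between the lines are of counts-per-million (CPM) scaled with TMM, and levels of different genes are compared in TPM (transcripts-per-million), which takes gene length into account. A count under 3 was set to a floor of 3 counts per library for the ratio, which is 0.148 CPM in SKHEP1 and 0.135 CPM in HepG2; where a gene had 1 or 2 counts, the ratio printed is the raw one with its interval. A ratio given as at least a fold is against this floor and is not a 95% limit; the exact lower limit, which is smaller, is given beside it. Intervals are exact 95% intervals for counting error only, and reads copied by PCR were not collapsed to molecules by identifiers, so they are not independent of each other. Each line has a single library, so the spread between cultures is unknown and no difference could be checked against replicates. Of 8 hepatocyte markers, all were at 0 counts in SKHEP1 and at 1237 counts or more in HepG2. Of 8 endothelial markers, 5 were under 10 counts in both lines, among them VE-cadherin (CDH5), at 1 count in SKHEP1. These 5 markers of the labelled endothelial type were thus near absent. The other 3 were all higher in HepG2, 1 of them (33.3%) by at least 4-fold, against 13.0% of all genes compared. With only 3 genes, nothing is read from this share. Of 6 fibroblast and mesenchymal markers, 4 (66.7%) were at least 4-fold higher in SKHEP1, against 16.5% of all genes compared. The other 2 lay within 4-fold, and both were on the HepG2 side. Of 6 blood and immune markers, 5 were under 10 counts in both lines.

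The sequences below show where letters of the antioxidant response element, the motif that NRF2 is known to bind, stand next to gene starts. The core TGACNNNGC was searched on both strands of RefSeq promoter windows (build GRCh38.p14) that run from 250 bases before to 50 after a gene's start. Windows were held for 8 of the 9 genes (11 windows, since some genes have more than 1 start), and for none of HMOX1. Of the 11 windows, 4 held a match (36.4%), against 13.3% of all 35116 windows of this length. These 4 windows belong to KEAP1, GCLM and TXNRD1, which has 2 of them, and hold 6 matches in all. NFE2L2, GCLC, SRXN1, OSGIN1 and NQO1 had none. The number is small and most of the genes were picked as known NRF2 targets, so nothing is read from the share. Each line gives 30 bases on the strand of the motif, 5′ to 3′, with the core in capitals.
KEAP1, second listed start, chr19:10502784-10502813, plus strand: caggtcaccaTGACTAAGCagagccgggcg
KEAP1, second listed start, chr19:10502806-10502835, minus strand: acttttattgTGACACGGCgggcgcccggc
GCLM, chr1:93909446-93909475, plus strand: tggaagacaaTGACTAAGCagaaatcgtag
TXNRD1, first listed start, chr12:104215670-104215699, plus strand: acacgggctaTGACTTCGCtgttgtcaccg
TXNRD1, first listed start, chr12:104215760-104215789, minus strand: ctgtgggaacTGACGGAGCcgaaggacgcc
TXNRD1, second listed start, chr12:104286919-104286948, minus strand: agagtcagaaTGACAAAGCagaaatccact
KEAP1 and GCLM held the same core, TGACTAAGC, whose upstream edge lay 31 and 34 bases before their starts. A match is a string in the reference and not a measured binding site.

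NQO1 had no match in its window. Its 250 upstream bases (chr16:69726561-69726810, minus strand) are shown because this gene had the widest gap of the 9 between the lines. The capitals mark the GC box GGGCGG, searched on both strands, which 45.0% of all windows hold. It occurs 2 times here, both on the opposite strand.
NQO1 upstream: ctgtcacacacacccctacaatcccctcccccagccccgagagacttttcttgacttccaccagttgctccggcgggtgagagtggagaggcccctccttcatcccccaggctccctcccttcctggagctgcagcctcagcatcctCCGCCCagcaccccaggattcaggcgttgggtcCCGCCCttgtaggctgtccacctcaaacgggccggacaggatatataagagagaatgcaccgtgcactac
These bases were 61.6% G or C and held 9 CpG dinucleotides. The element usually described for NQO1 lies further upstream than this window.

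NQO1 was on in HepG2 and undetected in SKHEP1, while the other 8 genes were expressed in both lines. The TPM levels were spread over a wide range in each line and in a different order. In SKHEP1, TXNRD1 led, followed by HMOX1, SRXN1, NFE2L2, KEAP1, GCLM, GCLC and OSGIN1, with NQO1 at 0. In HepG2 the order was NQO1, TXNRD1, NFE2L2, SRXN1, KEAP1, GCLC, HMOX1, GCLM and OSGIN1. Neighbours in these orders had separate counting intervals, except SRXN1 and NFE2L2 in SKHEP1 (65.6 and 65.2 TPM) and GCLC and HMOX1 in HepG2 (66.5 and 64.5 TPM).

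**Figure D1:**
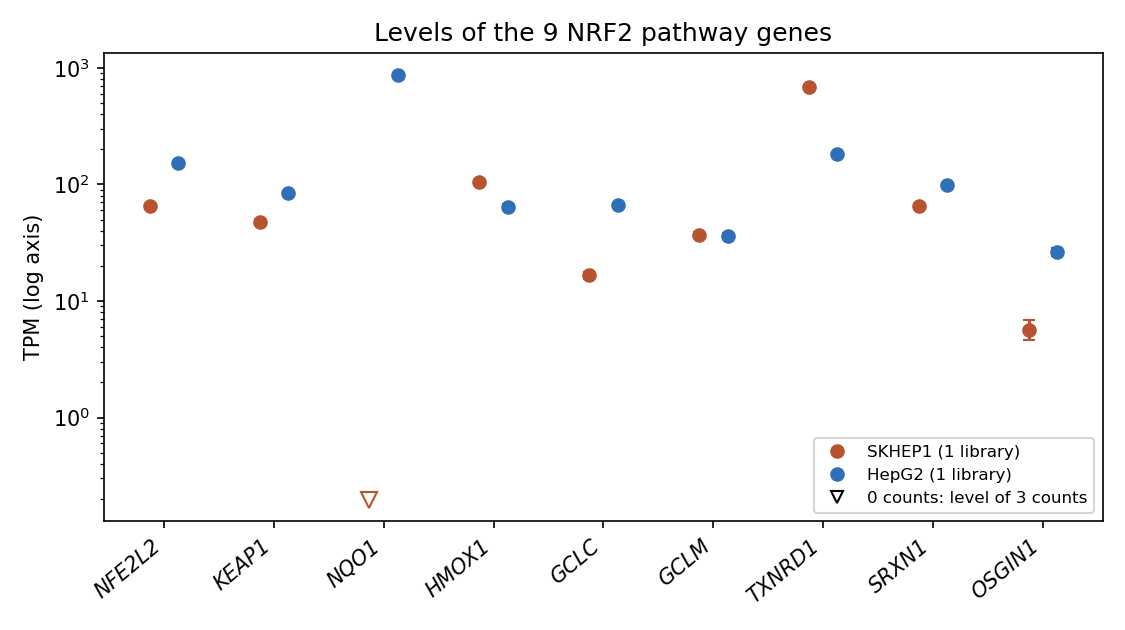
TPM (log axis) of the 9 genes in the SKHEP1 and HepG2 library, with exact Poisson 95% intervals for counting error, mostly smaller than the points. The open triangle marks NQO1 in SKHEP1, at 0 counts, drawn at the level of 3 counts (0.196 TPM), while HepG2 had 866 TPM.

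At the 4-fold limit 2 of the 9 genes, NQO1 and OSGIN1, were higher in HepG2, 0 were higher in SKHEP1, and 7 lay within 4-fold. All genes compared were the 15436 with an expected count of 10 or more in a library; the same limit was passed by 13.0% of them towards HepG2 and by 16.5% towards SKHEP1. Since the 9 were chosen with these values known, nothing is read from that comparison. The median log2 ratio of the 9, HepG2 over SKHEP1, was 0.73, and their mean 1.79, against a median of -0.03 over all genes compared.

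**Figure D2:**
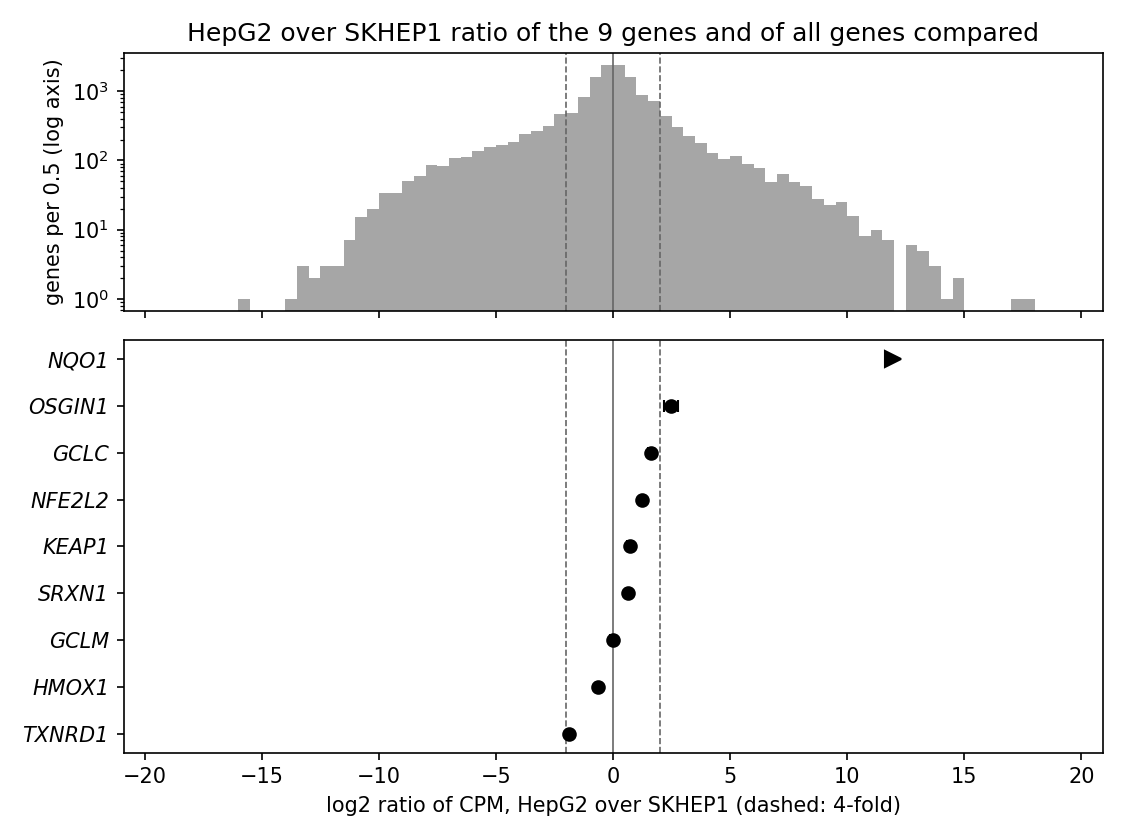
Upper panel, the number of genes (log axis) by log2 ratio of CPM, HepG2 over SKHEP1, for all genes compared. Lower panel, the ratio of each of the 9 genes with its 95% counting interval, where dashed lines mark 4-fold and the arrowhead of NQO1 (11.95) is a lower bound; NQO1 and OSGIN1 lie past the right line and TXNRD1 (-1.89) just inside the left.

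NFE2L2 and KEAP1, the transcription factor and its inhibitor, were both expressed in both lines and both higher in HepG2. NFE2L2 had 2050 counts, or 65.2 TPM (62.4 to 68.0), in SKHEP1 and 5376 counts, or 151.6 TPM (147.6 to 155.7), in HepG2. HepG2 was thus higher, by 2.39-fold in CPM (2.27 to 2.51). KEAP1 had 944 counts, or 47.7 TPM, in SKHEP1 and 1717 counts, or 83.8 TPM, in HepG2, a 1.66-fold ratio in CPM (1.53 to 1.80). The level of NFE2L2 over that of KEAP1 was 1.36 in SKHEP1 and 1.81 in HepG2, in TPM. NFE2L2 overlaps AGPS on the other strand in GENCODE release 29. AGPS had 2816 and 3886 counts, and without the strand setting of the counting, reads of overlapping stretches cannot be told apart.

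NQO1, which reduces quinones to hydroquinones without a semiquinone step, was the member of the 9 with the widest gap. It had 0 counts in SKHEP1 and 13009 in HepG2 (12786 to 13235), or 866 TPM (851 to 881). HepG2 was therefore at least 3950-fold higher in CPM against the floor, and the exact lower limit of the ratio was 3212-fold. NQO1 ranked 171 among all genes by TPM in HepG2. In SKHEP1, 784 genes had 0 counts while HepG2 had at least 10, and NQO1 was number 18 of them by HepG2 count. It made up 55.0% of the summed TPM of the 9 genes in HepG2. NQO2, the related quinone reductase, was expressed in both lines, with 267 counts in SKHEP1 and 661 in HepG2.

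Without NQO1 the summed level of the other 8 genes was higher in SKHEP1, 1023 TPM against 709 in HepG2. TXNRD1 alone gave 66.6% of the 9-gene sum in SKHEP1 and 11.5% in HepG2. With NQO1 the sums were 1023 and 1575 TPM, higher in HepG2. Without both NQO1 and TXNRD1 the sum of the other 7 was 342 TPM in SKHEP1 and 528 in HepG2, so the direction of a summed level turned on these genes.

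The genes next to NQO1 on chromosome 16 were expressed in both lines. NFAT5, the nearest protein-coding gene on one side in GENCODE release 29 and an osmotic stress factor, had 1698 counts in SKHEP1 and 3236 in HepG2. NOB1, the nearest on the other side and a ribosome assembly factor, had 1082 and 3667. Both were higher in HepG2, by 1.74-fold (1.64 to 1.84) and 3.09-fold (2.88 to 3.31) in CPM. Of the 5 protein-coding genes on each side, NIP7, TERF2, CYB5B, NFAT5, NOB1, WWP2 and PDPR had at least 584 counts in each line. All of these were higher in HepG2, from 1.56-fold (PDPR) to 3.37-fold (WWP2) in CPM. TMED6 had 2 SKHEP1 counts against 147, a 66.9-fold ratio (18.2 to 558.0), and CLEC18A and CLEC18C, near-identical copies, had 4 or fewer in each. The genome copy number and DNA methylation of NQO1 were not analysed here.

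**Figure D3:**
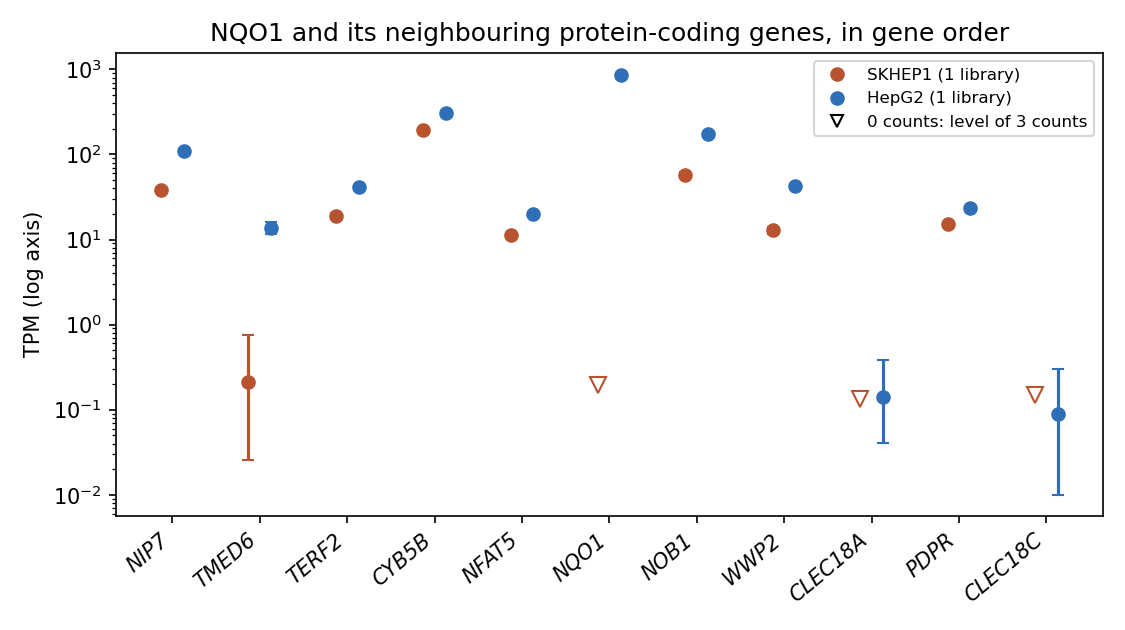
TPM (log axis) of NQO1 and the 5 protein-coding genes on each side of it, in gene order and not to genomic scale, in SKHEP1 and HepG2, with 95% counting intervals. Open triangles mark 0 counts, drawn at the level of 3 counts; NFAT5 and NOB1, on either side of NQO1, were expressed in both libraries.

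Among all genes compared, those nearest to NQO1 in log2(TPM + 1) over the 2 libraries were FGA, ORM2 and SEPP1. FGA, the fibrinogen alpha chain, had 0 and 866.3 TPM in SKHEP1 and HepG2. ORM2, an acute-phase plasma protein, had 0 and 939 TPM, and SEPP1, the selenium carrier selenoprotein P, 0.14 and 898 TPM. ORM2 has a near copy, ORM1, and its level is uncertain. Likeness over 2 libraries says only that a gene was high in HepG2 and at or near 0 in SKHEP1.

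HMOX1, the inducible heme oxygenase that breaks heme down to biliverdin, iron and carbon monoxide, went the other way from NQO1. It had 2161 counts, or 104 TPM (99.9 to 108.7), in SKHEP1 and 1512 counts, or 64.5 TPM (61.3 to 67.8), in HepG2. SKHEP1 was 1.57-fold higher in CPM (1.47 to 1.68). HMOX1 is also known to respond to heme through the repressor BACH1. BACH1 had 1667 counts in SKHEP1 and 929 in HepG2, and was 1.97-fold higher in SKHEP1 (1.82 to 2.14).

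The glutamate-cysteine ligase, which catalyses the first step of glutathione synthesis, is made of a catalytic subunit, GCLC, and a modifier subunit, GCLM, and the lines differed in the former. GCLC had 689 counts, or 16.6 TPM (15.4 to 17.9), in SKHEP1 and 2306 counts, or 66.5 TPM (63.8 to 69.2), in HepG2. HepG2 was 3.05-fold higher in CPM (2.80 to 3.32). By the deposited TPM the ratio of GCLC was 4.01, past the 4-fold limit, which 12.3% of genes passed in this direction on that scale. The effective length that RSEM gave GCLC was 3266 bases in SKHEP1 and 2401 in HepG2, so the same reads weigh more per base in HepG2. GCLM had 1130 counts in SKHEP1 and 1223 in HepG2, or 36.7 and 36.0 TPM. The GCLM ratio of 0.99 had an interval of 0.91 to 1.07 that held 1, and the side of 1 on which it fell changed with DESeq2 size factors. The level of GCLC over that of GCLM was 0.45 in SKHEP1 and 1.85 in HepG2, in TPM.

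TXNRD1 and SRXN1, of the thioredoxin system, differed between the lines in opposite directions. TXNRD1, the cytosolic selenoenzyme that reduces thioredoxin with NADPH, had 23331 counts, or 681 TPM (672 to 690), in SKHEP1 and 6907 counts, or 181 TPM (177 to 185), in HepG2. SKHEP1 was 3.71-fold higher in CPM (3.61 to 3.81), just under the 4-fold limit, and TXNRD1 ranked 206 among all genes by TPM there and 841 in HepG2. TXNRD1 overlaps the pseudogene RPL18AP3, which had 184 and 176 counts. SRXN1, or sulfiredoxin, which restores over-oxidised peroxiredoxins, had 2091 counts, or 65.6 TPM, in SKHEP1 and 3569 counts, or 98.7 TPM, in HepG2. HepG2 was 1.55-fold higher in CPM for SRXN1 (1.47 to 1.64).

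OSGIN1, an oxidative stress-induced growth inhibitor, was the least abundant of the genes detected in both lines. It had 103 counts, or 5.63 TPM (4.59 to 6.82), in SKHEP1 and 627 counts, or 26.5 TPM (24.5 to 28.6), in HepG2. HepG2 was 5.54-fold higher in CPM (4.50 to 6.90) and 4.71-fold higher in TPM.

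A further 93 genes of the pathway, in 8 lists written from textbook knowledge, were compared in the same way, and all 93 passed the count minimum. The 4-fold limit was passed towards HepG2 by 21 of them (22.6%, against 13.0% of all genes) and towards SKHEP1 by 7 (7.53%, against 16.5%), and 65 lay inside it. Their median log2 ratio was 0.51. The lists were chosen with earlier results of these libraries known. Nothing is therefore read from these shares, nor from those given below for the same genes. Hepatocyte markers were on in HepG2 and at 0 in SKHEP1, as given above, and their part in these counts was not tested.

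**Figure D4:**
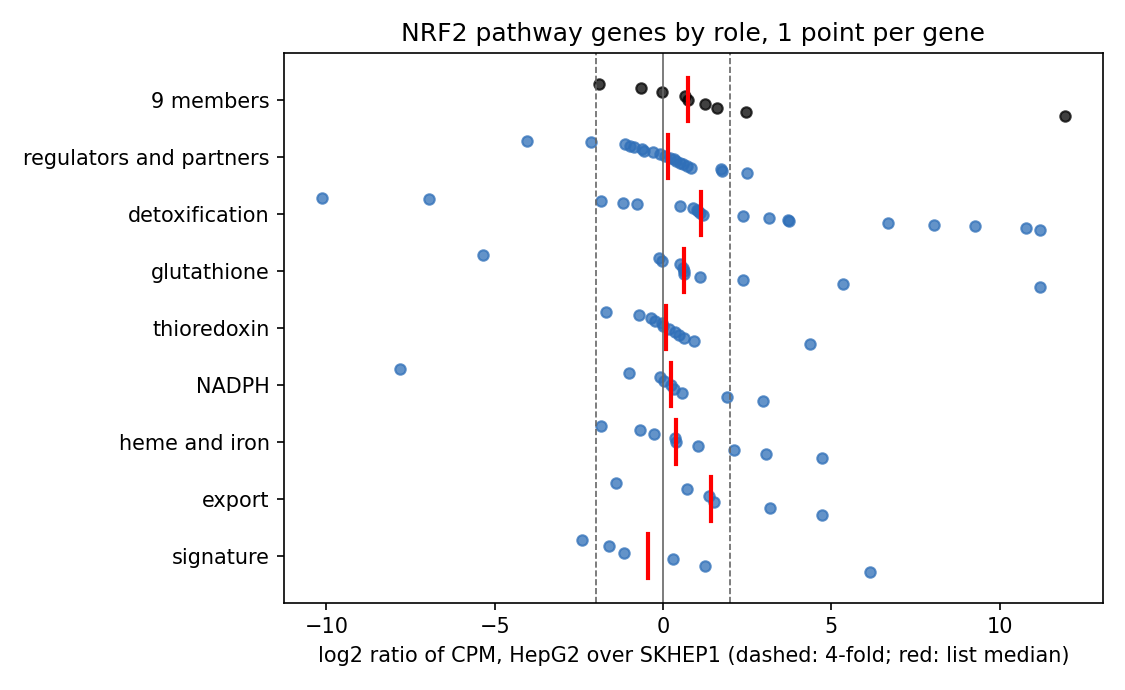
Log2 ratio of CPM, HepG2 over SKHEP1, for the 9 genes (black) and the 93 further genes of the pathway in 8 lists (blue), 1 point per gene; red bars are list medians and dashed lines mark 4-fold. Points past 4-fold on both sides occur in 5 lists, and detoxification spans the widest range.

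Of the regulators and partners of NRF2, 17 of 20 lay within 4-fold, as did 70.5% of all genes compared. Of the 20, 1 passed the limit towards HepG2 (5%, against 13.0% of all genes) and 2 towards SKHEP1 (10%, against 16.5%). The median log2 ratio was 0.13 and the mean -0.06. NFE2L3, a cap'n'collar relative of NRF2, had 5094 SKHEP1 counts against 342 in HepG2, and was 16.4-fold higher in SKHEP1 (14.7 to 18.3). BACH2, a relative of BACH1, was the other, at 12 SKHEP1 counts against 0. Its ratio against the floor was 4.39, but the exact lower limit was 3.05 and the TPM ratio 1.88, so its call rests on the floor and is lost on both. The TPM ratio used an effective length of 2438 bases in HepG2, where BACH2 had no reads, against 5899 in SKHEP1. The retinoid X receptor gene RXRA, whose product has been described as an inhibitor of NRF2, was 5.68-fold higher in HepG2 (5.04 to 6.43). SQSTM1, or p62, which can sequester KEAP1, was the most abundant gene of this list in both lines by TPM, at 364 in SKHEP1 and 240 in HepG2. CUL3, the scaffold of the ligase that KEAP1 serves, had 2453 and 2790 counts, a ratio of 1.04 (0.98 to 1.09). Of the small MAF partners, MAFF was 2.18-fold higher in SKHEP1 (1.82 to 2.62), MAFK 1.22-fold higher in SKHEP1 (1.05 to 1.43) and MAFG 1.24-fold higher in HepG2 (1.15 to 1.35).

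Of the 20 detoxification genes, 9 passed the limit towards HepG2, against 13.0% of all genes, and 2 towards SKHEP1, against 16.5%; 9 lay inside it, and the median was 1.14. AKR1B10 and the AKR1C genes, aldo-keto reductases that reduce carbonyls and steroids, were at 11 counts or fewer in SKHEP1. AKR1C1 had 11 counts in SKHEP1 and 21157 in HepG2, and its 1201 TPM made it the most abundant gene of the list there. AKR1C2 was at 0 and 7789 counts, a gap of at least 2365-fold (exact lower limit 1923). AKR1B10 was at 0 and 2047 counts, a gap of at least 621-fold (exact lower limit 505), or 340-fold by TPM. The effective lengths were 745 bases in SKHEP1, where AKR1B10 had no reads, and 1317 in HepG2. The AKR1C genes are near-identical copies, so the split of reads among them is uncertain. In the other direction GSTP1, a glutathione transferase, had 3093 SKHEP1 counts against 0, a gap of at least 1132-fold (exact lower limit 920.0), and at 397 TPM led the list in that line. The carbonyl reductase gene CBR3 was likewise on in SKHEP1 alone, with 336 counts against 0, a gap of at least 123-fold (exact lower limit 99.5).

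Glutathione genes were mixed. The limit was passed by 3 of 11 towards HepG2 (27.3%, against 13.0% of all genes) and by 1 towards SKHEP1 (9.09%, against 16.5%). The median was 0.61. GPX2, a glutathione peroxidase known from gut and liver, went from 0 SKHEP1 counts to 7712 in HepG2, a gap of at least 2341-fold (exact lower limit 1904), and at 678 TPM was the most abundant of the list there. GGT1, a gamma-glutamyltransferase of the cell surface with near copies that make its counts uncertain, was 41.0-fold higher in HepG2 (26.7 to 66.5). GSR, which regenerates reduced glutathione, was 5.23-fold higher in HepG2 (4.88 to 5.61). CHAC1, which degrades glutathione, had 112 SKHEP1 counts against 1, a 123-fold ratio (21.6 to 4900). GPX4, which reduces lipid peroxides and was the most abundant gene of the list in SKHEP1, had 318 and 453 TPM. The cystine transporter gene SLC7A11 had 1244 and 1258 counts, a ratio of 0.921 (0.851 to 0.997).

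Of the thioredoxin genes 11 of 12 and of the NADPH genes 7 of 9 lay within 4-fold, where 70.5% of all genes compared lay. Among 12 thioredoxin system genes 1 passed the limit by CPM towards HepG2 (8.33%, against 13.0% of all genes) and 0 towards SKHEP1 (against 16.5%). The median was 0.09. TXNRD2, the mitochondrial thioredoxin reductase, was 3.26-fold higher in SKHEP1 by CPM (2.93 to 3.64) but 5.49-fold by TPM, since its effective length was 1001 bases there and 1629 in HepG2. By TPM it thus passed the limit towards SKHEP1. PRDX2, a peroxiredoxin, was 20.7-fold higher in HepG2 (17.9 to 23.9), with 199 counts in SKHEP1 and 4514 in HepG2. PRDX1 was the most abundant of them in both lines, at 854 TPM in SKHEP1 and 1581 in HepG2. Among 9 NADPH genes, 1 passed the limit in each direction (11.1%, against 13.0% towards HepG2 and 16.5% towards SKHEP1). The median was 0.25 and the mean -0.32. IDH1, the cytosolic isocitrate dehydrogenase, was 7.89-fold higher in HepG2 (7.53 to 8.27), where it led the list at 556 TPM. The malic enzyme gene ME1 had 610 SKHEP1 counts against 0, a gap of at least 223-fold (exact lower limit 181). TKT, a transketolase and the most abundant of the list in SKHEP1, had 318 and 284 TPM.

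Genes of heme and iron, export pumps and further signature genes completed the pathway. Among 9 heme and iron genes, 3 passed the limit towards HepG2 (33.3%, against 13.0% of all genes) and 0 towards SKHEP1 (against 16.5%). Their median was 0.38. FTL, the ferritin light chain, led the list in both lines, at 4316 and 18076 TPM, and was 4.32-fold higher in HepG2 (4.27 to 4.36). The iron exporter gene SLC40A1 was 26.3-fold higher in HepG2 (20.7 to 34.0), and ABCB6, a porphyrin transporter, 8.39-fold (7.30 to 9.67). Among 6 export pumps, 2 passed the limit towards HepG2 (33.3%, against 13.0%) and 0 towards SKHEP1 (against 16.5%). Their median was 1.44. ABCC3 was 26.5-fold higher in HepG2 (19.7 to 36.4) and ABCG2 9.11-fold (6.52 to 13.1), while ABCC2 led the list in both lines at 31.2 and 77.6 TPM. Among 6 matched signature genes, 1 passed the limit in each direction (16.7%, against 13.0% towards HepG2 and 16.5% towards SKHEP1). Their median was -0.44 and the mean 0.41. CYP4F11, a cytochrome P450, had 232 HepG2 counts against 0, a gap of at least 70.4-fold (exact lower limit 56.8). TRIM16L was 5.30-fold higher in SKHEP1 (4.10 to 6.95), but shares reads with its near copy TRIM16, itself at 644 and 230 counts, and is uncertain. PIR, or pirin, had 13.6 and 32.0 TPM.

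NQO1 was not alone in being on in a single line. Of the 93 further genes, 4 (4.30%) had 0 counts in SKHEP1 and at least 100 in HepG2, against 2.20% of all genes, namely AKR1B10, AKR1C2, GPX2 and CYP4F11. A further 3 (3.23%) had 0 counts in HepG2 and at least 100 in SKHEP1, against 2.81% of all genes, namely CBR3, GSTP1 and ME1. Promoter windows were held for 5 of these 7 genes, and for none of CBR3 and AKR1B10. Of their 6 windows, 4 held the core element, against 13.3% of all windows. The window of AKR1C2 held none, and of the 2 windows of CYP4F11 only that of the first listed start held it. The number is small and the genes were picked from lists of known NRF2 targets. The matches below are shown because they occurred in genes at 0 counts in either line.
GSTP1, 0 counts in HepG2, chr11:67583736-67583765, plus strand: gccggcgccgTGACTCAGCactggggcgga
ME1, 0 counts in HepG2, chr6:83431169-83431198, minus strand: tctcctgccaTGACTCAGCgcttctcgcag
GPX2, 0 counts in SKHEP1, chr14:64942849-64942878, plus strand: atccccaggaTGACTTAGCaaaaacaggtc
CYP4F11, 0 counts in SKHEP1, chr19:15935005-15935034, plus strand: cagctcagggTGACACAGCatgggcacagg
GSTP1 and ME1 held the same core, TGACTCAGC, which also contains the AP-1 motif TGANTCA, found in 7.71% of all windows. ME1 had a further match downstream of its start, which is not shown.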

How the data were processed

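RNA of unmodified SKHEP1 and HepG2 cells was sequenced from stranded mRNA libraries, 1 per line, per the labels' protocols. Cutadapt, STAR, RSEM and DESeq2 and the build hg19 are named in the submitters' processing notes; their versions, the annotation and the strand setting are not stated there. The deposited tables hold expected counts, TPM, FPKM and gene lengths, per the file headers. Expected counts were rounded and scaled to CPM of the TMM effective library size (factors 1.01 and 0.99) with edgeR 4.0.16 in R 4.3.3. No test was possible without replicates. Ratios have exact conditional Clopper-Pearson intervals and levels exact Poisson intervals (scipy 1.17.1). The script was tested on simulated counts.

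The members, lists and alternatives were chosen with earlier results of these data known. Beside the 9 members, the named genes of each list were those at least 4-fold apart with at least 100 counts in the higher library, up to 3 per direction, and the highest TPM in each line; the 3 genes nearest to NQO1 were added. BACH1, BACH2, CUL3, the MAF genes, NQO2, SLC7A11, TXNRD2 and the NQO1 neighbours were named after their values were seen. NMRAL1P1 was not analysed here. Gene order and overlaps come from GENCODE release 29 by stable identifier, and promoter windows from RefSeq, GRCh38.p14, another build than that of the counts. The alternatives were other scalings (total counts, DESeq2 1.42.0 size factors), TPM, FPKM, a prior count of 2, unrounded counts, a thinned HepG2 library, limits of 2-fold and 8-fold, count minimums of 50 and 1, the interval's bound, and the mean.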

Additional observations from a re-analysis of the deposited data

How the results depend on the processing

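NQO1 kept its direction and stayed past 4-fold under all 7 alternative scalings and units, with a log2 ratio between 11.91 and 12.60. With 0 counts against 13009, none of these alternatives could have changed that, so it is no check of the ratio. The highest value, 12.60, came with the prior count of 2. The median of all genes moved by less than 0.1 (log2) under each of the 7 alternatives. OSGIN1 stayed past 4-fold (2.23 to 2.51) and TXNRD1 within it (-1.93 to -1.85); GCLC passed it with TPM and FPKM (1.57 to 2.01 over all settings). With a limit of 2-fold, 4 of the 9 passed towards HepG2 and 1 towards SKHEP1. Of the 15436 genes compared, 3614 and 3859 passed it, against 2002 and 2549 at 4-fold. With a limit of 8-fold, 1 of the 9 and 1258 of the 15436 passed towards HepG2, and 0 and 1770 towards SKHEP1. The 9 were chosen with these values known, so nothing is read from these counts. Of the 93 further genes, BACH2 and TXNRD2 changed sides of the limit with TPM. The mean log2 ratio of the 9 was 1.79 in place of the median of 0.73. The mean includes the ratio of NQO1 against the floor, 11.95. No paired analysis was possible because each line has a single library. With 0 counts in SKHEP1, the NQO1 ratio has no upper limit, and of the other 8 the interval was widest for OSGIN1 (4.50 to 6.90); variation between cultures was not measured.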

Other observations

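The gap in effective length that moved GCLC past the 4-fold limit in TPM was wider than in most genes. RSEM weights a gene's length by the isoforms it assigns reads to, and for GCLC the larger length was 1.36-fold the smaller. Of 9196 genes with at least 100 counts in both libraries, 2.57% had a gap at least as wide, and the median gap was 1.04-fold. For OSGIN1 the gap was 1.14-fold, with the longer value in HepG2, and 15.7% of genes had one at least as wide. The isoforms themselves were not analysed here.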
